A study of Mus musculus with 4 samples.

Results

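The genes described here are 36 genes of glucose breakdown and of the response to low oxygen, chosen by symbol from the mouse genes of the series. Their measured values were not part of the rule, but earlier results of these data were known when the genes were chosen. They are 4 transporters of glucose and lactate, 16 glycolytic enzymes from hexokinase to lactate dehydrogenase, 3 regulators of flux, 3 genes of the oxygen-sensing pathway and 10 genes known to respond to hypoxia. All 36 were among the 34866 gene identifiers of the count table, in 37 rows, because Aldoa had a second identifier with 3 to 10 counts per library. The cells were primary mouse neural stem and progenitor cells (NSPCs) of the dorsal telencephalon, the region of the embryo's brain that becomes the cortex, taken at E11.5, grown for 5 days as neurospheres (balls of cells floating in the medium) and profiled by RNA sequencing. The medium held 20 ng/ml bFGF and 25 ug/ml insulin, and cells were kept at 5% CO2; the sources used here do not give the oxygen level. Control cells (shControl, 2 libraries, genotype label WT) received 1 lentiviral vector, CS-EG-shControl, at a multiplicity of infection (virus particles per cell) of 30. Triple knockdown cells (2 libraries) received 3 vectors at 10 each, with pCS-EG carrying shPhf21b and pLV-EG carrying shZfp7 or shZfp57, so the number of vectors and the backbone also differed between the groups and cannot be told apart from the hairpins. The genotype label of the knockdown spells the first 2 targets Phf21 and Sfp7; the vector names are followed. The labels do not say that replicates came from separate cultures or litters, so a p-value here reflects only how far these libraries differ, which may be technical.

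Glycolysis splits glucose into pyruvate through a chain of cytosolic enzymes, and lactate dehydrogenase converts pyruvate to lactate when glycolysis runs ahead of the mitochondria. Many of these enzymes are encoded by genes that the hypoxia-inducible factor, a transcription factor whose alpha subunit is destroyed while oxygen is plentiful, switches on when oxygen falls. Cortical progenitors are known to rely on glycolysis more than the neurons they produce, and the middle of a sphere of cultured cells can be short of oxygen.

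Of the 16 glycolytic enzymes, 8 measured over 100 CPM in every library, the hypoxia marker Car9 was nearly undetected, and no gene of the set passed the test for a difference between the triple knockdown and control. CPM is a gene's estimated count brought to a common library size, with TMM normalization. Of the 36 genes, 34 had enough counts to be tested, and 0 of the 34 passed an adjusted p of 0.05 in either direction in edgeR's quasi-likelihood test, while 1.37% of all 14050 tested genes did (192 genes; 76 or 0.541% higher and 116 or 0.826% lower; with libraries scaled by total count alone, 77 higher and 28 lower). DESeq2 and limma-voom also called 0 of the 34. An unadjusted p below 0.05 was found for 7 of the 34 genes (3 with a positive and 4 with a negative fold change, 20.6%), against 12% of all tested genes. The libraries of the groups did not overlap for 15 of the 34 (44.1%; 5 with both knockdown libraries above and 10 below), against 41.3% of all tested genes (19.6% above and 21.7% below), so this share is near the background. The median log2 fold change, triple knockdown over shControl, was -0.14 (range -0.55 to 1.09) for the 34 genes and -0.01 for all tested genes. Of the 34 values 25 were below 0, beside 7182 of all 14050 tested genes. With libraries scaled by total count alone 21 of the 34 were below 0, and Bnip3, Eno1, Ldhb and Pgam1 turned positive. Without shControl replicate 1, 18 were below 0. In 30 of the 34 genes the 95% interval of the fold change lay within a 2-fold difference in either direction, and in 17 within 1.5-fold. Over all 14050 tested genes these counts were 10158 and 5490. A p that missed the threshold does not show that the levels were equal.

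**Figure D1:**
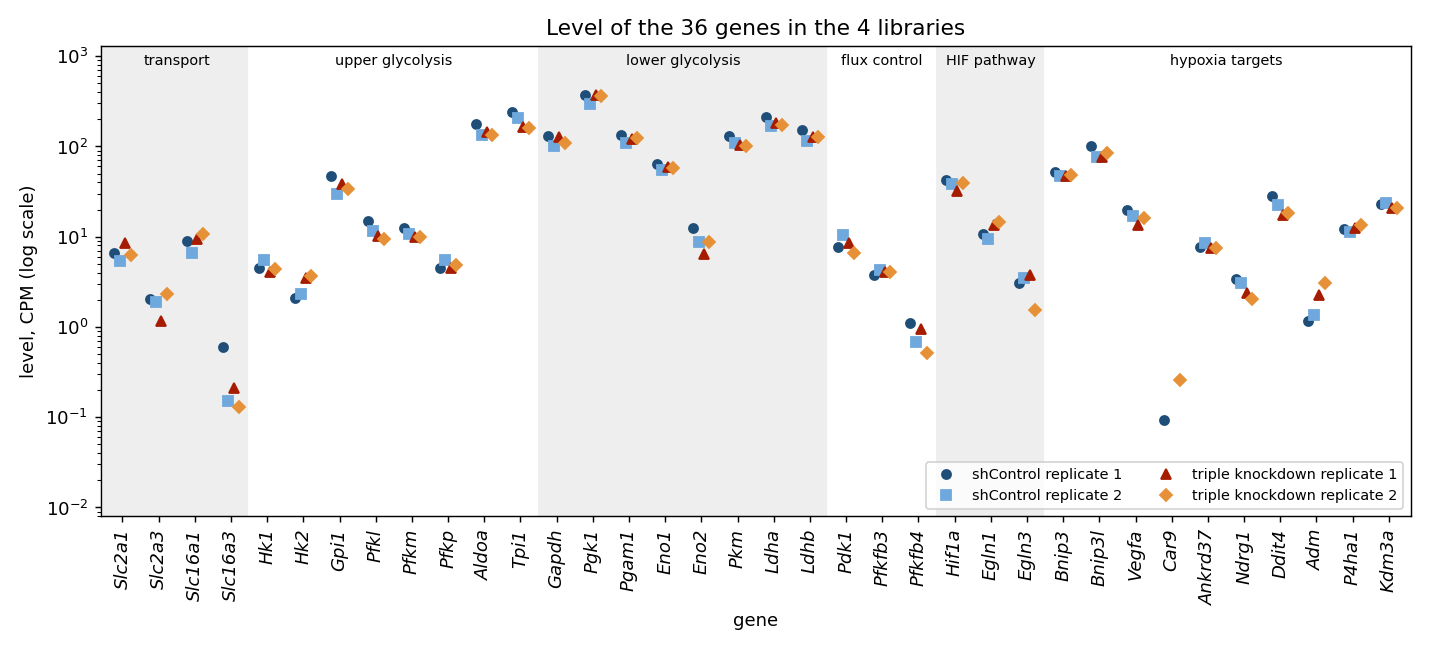
Level of each of the 36 genes in CPM on a log scale, with 1 point for each library (circles and squares, shControl; triangles and diamonds, triple knockdown), grouped by role; values of 0 are not drawn. Levels spanned from under 1 CPM for Slc16a3 and Car9 to 376 CPM for Pgk1, and for most genes the 4 points lie close together.

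**Figure D2:**
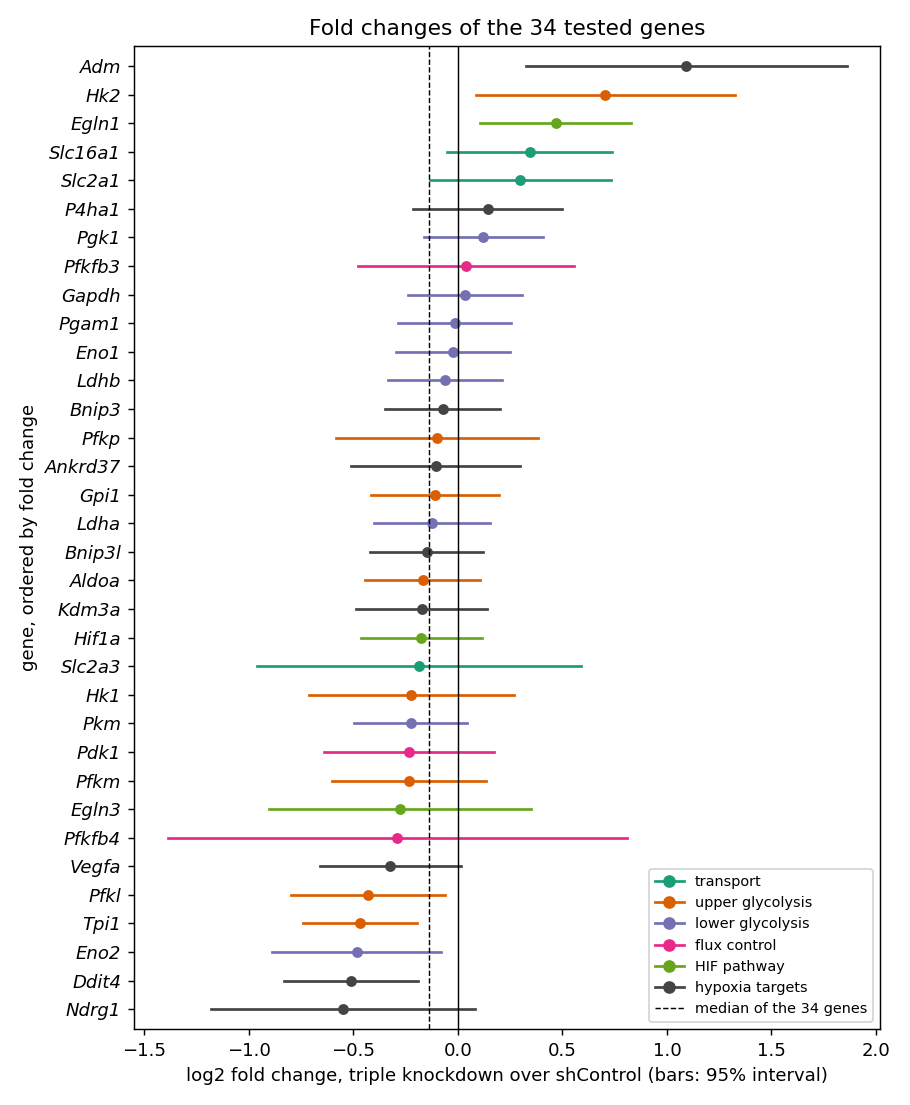
Fold changes (log2, triple knockdown over shControl) of the 34 tested genes with 95% intervals, coloured by role; the dashed line is their median, -0.14. Adm, at 1.09, has the highest value and a wide interval, and 25 of the 34 points lie below 0.

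The 3 targeted genes were at 81.6% (Phf21b), 77.6% (Zfp7) and 75.6% (Zfp57) of their control levels, and none of these differences passed the threshold (adjusted p = 0.64, 0.80 and 0.34), so a fall of the targets is not shown by their transcripts. Library totals ranged from 14694387 to 20779211 estimated counts, and the mitochondrial genome's transcripts made up 30.3% and 33.9% of counts for shControl against 26.6% and 28.5% for the knockdown. Progenitor markers, led by Fabp7 and Vim, summed to 22997 and 28041 CPM in shControl and to 20621 and 23322 CPM in the knockdown. None of the 10 passed the test. Fabp7 alone, at 20078 to 27520.5 CPM, made up most of each sum, so the sums say little about the other markers. Vim measured 259 to 336 CPM, and the lowest of the list, Hes1, 3.68 to 6.51 CPM. Neuron markers, led by Stmn2 and Gap43, summed to 1184 and 1070 CPM in shControl and to 876 and 910 CPM in the knockdown. Of the 12, 3 fell (Tubb3, Nsg2 and Celf4, adjusted p = 0.00044, 0.014 and 0.044) and 0 rose, while 0.826% of all tested genes fell. Erythroid markers, led by Hbb-y and Hba-a1, summed to 27.2 and 29.4 CPM in shControl and to 42.1 and 40.0 CPM in the knockdown. Of the 6 tested, 1 rose (Hbb-y, adjusted p = 0.040), while 0.541% of all tested genes rose. Myeloid (31.4 to 37.5 CPM, led by Lyz2 and Ptprc), mesenchymal (43.4 to 47.1 CPM, led by Lum and Col3a1) and endothelial or mural markers (7.28 to 9.60 CPM, led by Pecam1 and Rgs5) overlapped between the groups in their sums. The 2 leading myeloid markers differed in direction. Lyz2 measured 16.5 and 14.2 CPM in shControl and 12.7 and 9.70 CPM in the knockdown, below both controls (adjusted p = 0.23). Ptprc measured 5.34 and 10.1 CPM in shControl and 12.6 and 10.54 CPM in the knockdown, above both controls (adjusted p = 0.15). Neither passed, and 5 of the 7 tested myeloid markers had negative fold changes. In bulk RNA, fewer cells of a type and less RNA per cell cannot be told apart. The part of these cell types in the values that follow was not tested.

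Among the transporter transcripts 1 member of each pair predominated per length: Slc2a1 was 84.8% to 93.8% of the glucose pair and Slc16a1 94.7% to 99.0% of the lactate pair. Slc2a1, the basal glucose transporter, measured 6.68 and 5.40 CPM in shControl and 8.63 and 6.31 CPM in the knockdown, with overlapping groups (log2 fold change 0.30 ± 0.22 SE, adjusted p = 0.64). Slc2a3, the high-affinity glucose transporter of neurons, stayed between 1.17 and 2.34 CPM. Slc16a1, which moves lactate and other monocarboxylates, measured 8.91 and 6.68 CPM in shControl and 9.32 and 10.7 CPM in the knockdown. Both knockdown libraries were above both controls by a small margin, and the difference did not pass (log2 fold change 0.34 ± 0.20 SE, adjusted p = 0.51). Slc16a3, the lactate exporter typical of strongly glycolytic and hypoxic cells, had 13 and 2 counts in shControl and 4 and 2 counts in the knockdown, too few to be tested.

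In upper glycolysis, from hexokinase to triose phosphate isomerase, 0 of the 8 enzymes passed the test. Hk2 had a positive fold change and the other 7 negative ones, with a median log2 fold change of -0.20. Tpi1, which interconverts the triose phosphates made by aldolase (ENSMUSG00000023456.14, chromosome 6, 124810586 to 124814296 in GRCm38), measured 241 and 205 CPM in shControl and 162 and 160.3 CPM in the knockdown. Both knockdown libraries lay below both controls, at 72.3% of the control level (95% interval 59.8% to 87.4%). Tpi1 had the smallest p of the set and missed the threshold over all genes (log2 fold change -0.47 ± 0.14 SE, adjusted p = 0.065). Without shControl replicate 2 it passed (log2 fold change -0.57, adjusted p = 0.00128), and in the other 14 alternative analyses it did not.

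Hexokinases trap glucose in the cell by phosphorylation, and Hk2 is the inducible, growth-associated form of the enzyme. Hk2 (ENSMUSG00000000628.10, chromosome 6, 82725025 to 82774454) measured 2.09 and 2.33 CPM in shControl and 3.46 and 3.71 CPM in the knockdown. The groups did not overlap, and the difference did not pass (log2 fold change 0.71 ± 0.31 SE, adjusted p = 0.32). These levels rest on 31 to 65 counts per library. Hk1, the constitutive hexokinase, measured 4.55 and 5.48 CPM in shControl and 4.10 and 4.42 CPM in the knockdown. Both knockdown libraries were just below the controls, and the difference did not pass (log2 fold change -0.22 ± 0.25 SE, adjusted p = 0.80).

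Phosphofructokinase commits glucose carbon to glycolysis, and its liver-type subunit Pfkl measured 14.8 and 11.48 CPM in shControl and 10.2 and 9.44 CPM in the knockdown. Both knockdown libraries were below both controls (log2 fold change -0.43 ± 0.18 SE, adjusted p = 0.30). The muscle-type subunit Pfkm ranged from 9.83 to 12.4 CPM and the platelet-type subunit Pfkp from 4.53 to 5.55 CPM, with log2 fold changes of -0.23 and -0.10. Aldoa, the main aldolase of most tissues, measured 177 and 135 CPM in shControl and 144 and 134 CPM in the knockdown, with overlapping groups (log2 fold change -0.17 ± 0.14 SE, adjusted p = 0.69). Gpi1, the isomerase after hexokinase, measured 46.5 and 30.1 CPM in shControl and lay between these values in the knockdown at 38.0 and 33.5 CPM.

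In lower glycolysis, from Gapdh to lactate dehydrogenase, 0 of the 8 genes passed, their median log2 fold change was -0.04, and in 7 of the 8 the 95% interval lay within 1.5-fold. Pgk1, which makes the first ATP of the pathway (ENSMUSG00000062070.12, chromosome X, 106187100 to 106203699), measured 376 and 299 CPM in shControl and 369.7 and 365 CPM in the knockdown. The knockdown libraries fell inside the range of the controls (log2 fold change 0.12 ± 0.14 SE, adjusted p = 0.81). Pgam1, the phosphoglycerate mutase, measured 136 and 109.6 CPM in shControl and 119 and 124 CPM in the knockdown, again inside the control range. Eno1, the common enolase, stayed between 55.3 and 63.6 CPM.

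Eno2 is the enolase that neurons express, and it measured 12.3 and 8.70 CPM in shControl and 6.44 and 8.85 CPM in the knockdown. The groups overlapped (log2 fold change -0.49 ± 0.20 SE, adjusted p = 0.28); without shControl replicate 2 the gene passed (log2 fold change -0.69, adjusted p = 0.0260). The summed neuron markers given above were lower in both knockdown libraries than in both controls; their part in the Eno2 values was not tested. Pkm, pyruvate kinase, measured 131 and 108 CPM in shControl and 105 and 100.4 CPM in the knockdown, with both knockdown libraries just below the controls (log2 fold change -0.23 ± 0.14 SE, adjusted p = 0.53).

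Ldha encodes the lactate dehydrogenase subunit that favours lactate production, and Ldhb the subunit that favours the reverse reaction. Ldha measured 213 and 170.2 CPM in shControl and 180.1 and 172 CPM in the knockdown (log2 fold change -0.12 ± 0.14 SE, adjusted p = 0.80). Ldhb measured 151 and 115 CPM in shControl and 127 and 128 CPM in the knockdown (log2 fold change -0.06 ± 0.14 SE, adjusted p = 0.91). In both genes the knockdown libraries fell within the control range.

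Levels can be compared between genes only per length, and they are given here as CPM per kb of the gene's merged exons, as mean ± SD over the 4 libraries. By the counts assigned to each gene, Pgk1 was highest at 157 ± 16.1 CPM per kb (n = 4). Ldhb at 82.9 ± 9.46, Tpi1 at 69.9 ± 14.0 and Pgam1 at 61.6 ± 5.44 followed, and neighbours among these 3 differed by less than their SDs added together. Ldha at 55.5 ± 6.01 and Aldoa at 50.6 ± 7.002 came next, again closer than their SDs. The lowest were Car9 at 0.038, Slc16a3 at 0.052 and Pfkfb4 at 0.168 CPM per kb. With the longest coding transcript as the length, Pgk1 stayed highest at 193 CPM per kb and Tpi1 at 120 and Ldha at 101.2 CPM per kb both stood above Ldhb at 99.8, so the order below Pgk1 depends on the length used. Over 50% of the 31-base stretches of Pgk1 (54.7%) and Bnip3 (57.0%) also occur in other genes, so their counts are uncertain. For each of them, 2 other genes had over 50% of their own stretches in common with it, and these held 0 counts. Genes with a smaller share in common and antisense genes were left out of this count. Gapdh stood at 28.3 CPM per kb by the counts assigned to it. The copies of Gapdh described below held 77.5% of the summed counts, so its place in this order, above or below Pgk1, is not settled.

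Gapdh, the dehydrogenase between the triose phosphates and Pgk1 that is often used as a reference gene, was measured together with many copies of itself (ENSMUSG00000057666.18, chromosome 6, 125161715 to 125166467). A total of 41 other annotated genes had over 50% of their 31-base stretches in common with Gapdh, and 22 of them held counts. Gm13394 (chromosome 2, 28933610 to 28934609, minus strand) matched the 1080-base Gapdh coding sequence at 999 of 1000 aligned bases, and Gm7336 (chromosome 7, 51746647 to 51747878) at 1020 of 1020. The stretch below shows why the reads are hard to place: it is Gapdh coding bases 307 to 426, counted from 1 at the start of that coding sequence, above bases 229 to 348 of Gm13394, from the GENCODE M21 transcripts, with the single differing base in capitals.
Gapdh: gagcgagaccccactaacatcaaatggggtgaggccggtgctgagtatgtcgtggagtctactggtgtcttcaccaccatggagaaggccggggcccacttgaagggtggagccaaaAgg
Gm13394: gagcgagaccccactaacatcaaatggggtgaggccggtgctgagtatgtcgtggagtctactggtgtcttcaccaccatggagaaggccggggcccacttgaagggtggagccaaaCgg

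The reads assigned to Gapdh itself gave 129 and 101.4 CPM in shControl and 128 and 109 CPM in the knockdown, with overlapping groups (log2 fold change 0.03 ± 0.14 SE, adjusted p = 0.96). Gm13394 was listed at 328, 235, 293 and 269 CPM in the same order of libraries, above Gapdh in each. The copies together took 78.3% and 76.8% of the summed counts in shControl and 76.4% and 78.0% in the knockdown, a split that overlapped between the groups. With the copies added, the level was 517 ± 112 CPM (SD, n = 2) in shControl and 518 ± 31.4 CPM in the knockdown, and the log2 fold change was 0.00 ± 0.15 SE. Eno1 had a smaller case of the same kind: Eno1b and Gm4735 held 29.4% to 35.03% of its summed counts, and the log2 fold change was -0.02 without and -0.01 with them. How the reads were divided between such copies was set by the authors' quantification.

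**Figure D3:**
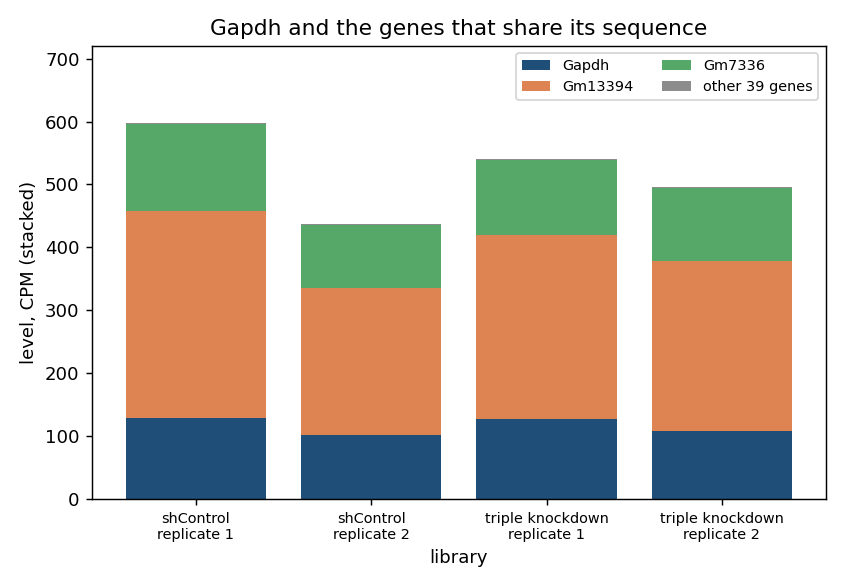
Level of Gapdh and of the 41 genes that share its sequence, stacked in CPM for each library: Gapdh, Gm13394, Gm7336 and the other 39 genes together. Gapdh itself is the smaller part in all 4 libraries, and the summed level of the 2 knockdown libraries, 540 and 496 CPM, lies between the shControl libraries at 597 and 438 CPM.

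Isozyme shares, each the share of a gene in the summed CPM per kb of its family, were computed for each library without a test. Hk2 made up 39.6% and 37.8% of hexokinase in shControl and 54.7% and 54.5% in the knockdown. Its group values were 38.7% ± 1.31 (SD, n = 2) and 54.6% ± 0.123, and the groups did not overlap. Neither Hk1 nor Hk2 passed the test on its own. These shares rest on 31 to 65 Hk2 counts and 68 to 98 Hk1 counts per library, so an SD of 2 libraries says little about their precision. Eno2 made up 18.2% and 15.3% of enolase in shControl and 11.1% and 14.8% in the knockdown. Pfkl made up 35.2% and 32.2% of phosphofructokinase in shControl and 31.5% and 30.0% in the knockdown, and Pfkm was the larger part in every library. Ldhb made up 58.8% to 61.1% of lactate dehydrogenase across all libraries, with overlapping groups. With the longest coding transcript as the length, the Hk2 share over all libraries moved from 46.6% to 32.5% and that of Ldhb from 59.9% to 49.6%. In a family of 2 genes a change of length cannot alter the order of the libraries, so it says nothing on whether the groups overlap.

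**Figure D4:**
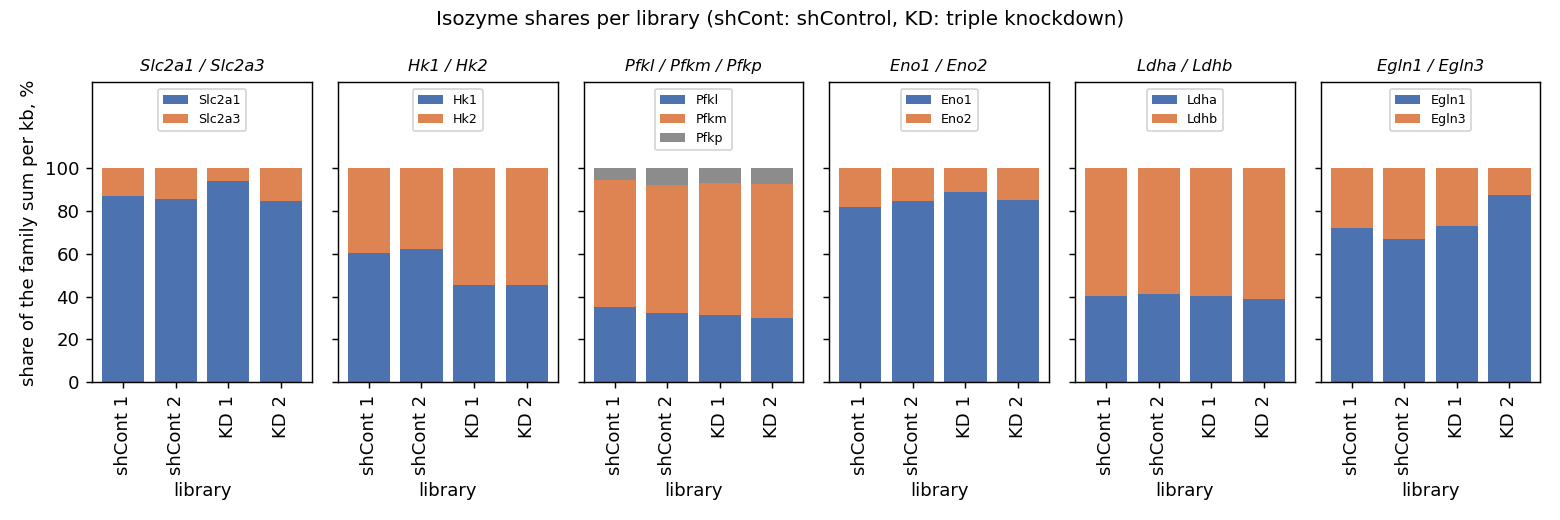
Share of each isozyme in the summed CPM per kb of its family, in percent, as stacked bars for the 4 libraries in 6 families. The Hk2 part is larger in both knockdown libraries (54.5% and 54.7%) than in both shControl libraries (37.8% and 39.6%), and the Ldha and Ldhb parts are alike in all 4.

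Of the regulators of flux, Pdk1, which keeps pyruvate out of the mitochondria by inhibiting pyruvate dehydrogenase, ranged from 6.64 to 10.4 CPM. Pfkfb3 and Pfkfb4, which set the level of a phosphofructokinase activator, ranged from 3.76 to 4.28 CPM and from 0.521 to 1.11 CPM. The groups overlapped in all 3 genes, and 0 passed.

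The oxygen-sensing pathway was represented by Hif1a, the oxygen-regulated subunit, and by Egln1 and Egln3, the prolyl hydroxylases that mark it for destruction and are themselves induced by it. Egln1 (ENSMUSG00000031987.6, chromosome 8, 124908587 to 124949324) measured 10.8 and 9.38 CPM in shControl and 13.5 and 14.6 CPM in the knockdown. Both knockdown libraries lay above both controls (log2 fold change 0.47 ± 0.18 SE, adjusted p = 0.22). Hif1a ranged from 31.8 to 42.4 CPM with overlapping groups (log2 fold change -0.17 ± 0.15 SE, adjusted p = 0.70). Egln3 measured 3.11 and 3.45 CPM in shControl and 3.73 and 1.56 CPM in the knockdown, so its knockdown libraries lay on either side of the controls.

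Among the 10 hypoxia-responsive genes, 9 were tested and 0 passed, and they differed in direction: Adm and P4ha1 had positive fold changes and the other 7 negative ones. Adm, a secreted vasodilator peptide (ENSMUSG00000030790.15, chromosome 7, 110627661 to 110629820), measured 1.16 and 1.35 CPM in shControl and 2.29 and 3.06 CPM in the knockdown. The knockdown level was 213% of control (95% interval 125% to 363%), from 25 and 17.8 counts against 42.6 and 47 counts. This was the highest fold change of the 34 genes, and it did not pass (log2 fold change 1.09 ± 0.39 SE, adjusted p = 0.16).

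Ddit4, a stress-induced inhibitor of mTORC1 growth signalling (ENSMUSG00000020108.4, chromosome 10, 59949669 to 59951834), measured 28.6 and 22.4 CPM in shControl and 17.6 and 18.4 CPM in the knockdown. Both knockdown libraries were below both controls, at 70.1% of the control level (95% interval 56.2% to 87.5%). The difference did not pass (log2 fold change -0.51 ± 0.16 SE, adjusted p = 0.094), and passed only without shControl replicate 2 among the 15 alternative analyses (log2 fold change -0.66, adjusted p = 0.00305). Adm and Ddit4 are both known to be induced by low oxygen. Their fold changes had opposite signs, and neither passed. The part of low oxygen in these values was not tested.

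Vegfa, the growth factor that attracts blood vessels, measured 19.8 and 16.9 CPM in shControl and 13.5 and 15.9 CPM in the knockdown (log2 fold change -0.32 ± 0.17 SE, adjusted p = 0.44). Ndrg1, a stress-responsive gene, measured 3.39 and 3.08 CPM in shControl and 2.40 and 2.02 CPM in the knockdown (log2 fold change -0.55 ± 0.32 SE, adjusted p = 0.50). In both genes the knockdown libraries lay below the controls without passing the test. The mitophagy receptors Bnip3 (46.7 to 52.1 CPM) and Bnip3l (76.6 to 100.8 CPM), the collagen prolyl hydroxylase P4ha1 (11.2 to 13.5 CPM), the histone demethylase Kdm3a (20.6 to 23.9 CPM) and Ankrd37 (7.48 to 8.63 CPM) had log2 fold changes between -0.17 and 0.14. Car9, a membrane carbonic anhydrase that many tissues express only in hypoxia, was at 2 and 0 counts in shControl and 0 and 4.16 in the knockdown and was not tested. A gene on the other strand overlaps 22.3% of Bnip3 exon bases (Gm45507) and 22.7% of Ankrd37 exon bases (Lrp2bp, beside 3.70% for Ufsp2), and the sources used here do not say whether the counts keep strand.

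The hypoxia-inducible factor binds DNA at a short core, ACGTG or GCGTG, and the promoters of the genes discussed most are shown so that these letters can be read beside the values. Each is the 250 bases before the annotated start, on the gene's strand, from RefSeq (GRCm38.p6), with every ACGTG or GCGTG, or the same letters on the other strand (CACGT or CACGC), in capitals. The windows are chr6:124814159-124814408 for Tpi1 (minus strand), chr10:59951771-59952020 for Ddit4 (minus), chr7:110627407-110627656 for Adm (plus), chr8:124949255-124949504 for Egln1 (minus), chr6:82774455-82774704 for Hk2 (minus) and chr7:46845554-46845803 for 1 start of Ldha (plus), shown because it holds the most ACGTG matches.
Tpi1: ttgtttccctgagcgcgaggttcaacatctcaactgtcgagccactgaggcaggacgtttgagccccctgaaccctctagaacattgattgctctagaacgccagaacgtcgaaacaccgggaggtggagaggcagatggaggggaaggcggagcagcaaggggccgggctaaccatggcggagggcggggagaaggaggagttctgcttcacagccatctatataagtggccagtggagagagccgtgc
Ddit4: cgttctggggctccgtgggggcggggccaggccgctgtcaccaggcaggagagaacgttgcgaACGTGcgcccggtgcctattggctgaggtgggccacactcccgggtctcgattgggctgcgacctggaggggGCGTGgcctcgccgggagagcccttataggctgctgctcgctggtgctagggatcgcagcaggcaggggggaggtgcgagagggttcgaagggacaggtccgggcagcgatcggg
Adm: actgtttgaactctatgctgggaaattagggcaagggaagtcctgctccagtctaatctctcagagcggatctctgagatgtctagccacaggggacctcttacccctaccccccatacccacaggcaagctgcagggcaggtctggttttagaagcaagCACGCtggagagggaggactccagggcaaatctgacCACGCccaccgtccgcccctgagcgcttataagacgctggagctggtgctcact
Egln1: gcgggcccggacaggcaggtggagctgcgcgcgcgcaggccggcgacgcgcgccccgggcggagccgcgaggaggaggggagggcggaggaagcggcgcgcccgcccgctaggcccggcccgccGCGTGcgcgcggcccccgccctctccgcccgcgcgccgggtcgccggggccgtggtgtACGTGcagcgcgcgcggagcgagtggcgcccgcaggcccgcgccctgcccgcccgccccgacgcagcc
Hk2: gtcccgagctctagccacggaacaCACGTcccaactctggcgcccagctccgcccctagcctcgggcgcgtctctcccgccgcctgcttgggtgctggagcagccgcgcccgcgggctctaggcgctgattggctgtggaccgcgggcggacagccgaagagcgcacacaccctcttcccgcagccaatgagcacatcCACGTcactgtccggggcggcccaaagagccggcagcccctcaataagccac
Ldha: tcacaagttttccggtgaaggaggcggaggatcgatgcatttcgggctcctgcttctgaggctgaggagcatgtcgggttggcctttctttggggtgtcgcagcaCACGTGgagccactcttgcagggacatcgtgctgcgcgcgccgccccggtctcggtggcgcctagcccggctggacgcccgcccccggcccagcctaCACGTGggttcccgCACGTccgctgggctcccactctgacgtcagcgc

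Tpi1 has neither motif in its window, Adm has 2 GCGTG and no ACGTG, and Hk2 has 2 ACGTG. Ddit4 and Egln1 have 1 of each, and their fold changes, neither of which passed, had opposite signs. RefSeq promoters were found for 33 of the 36 genes, in 48 windows. ACGTG stood in 23 of the 48 windows (47.9%), against 16.6% of all 32851 mouse windows searched in the same 250 bases before the start, and GCGTG in 52.1% against 28.2%. Either stood in 77.1% against 38.6%; the motifs were searched on both strands, and they can overlap where CACGTG reads the same on both. Members of the set were picked as pathway genes, many of them known targets of the factor, so these shares are a description. The 18 tested genes with ACGTG upstream had a median log2 fold change of -0.09 (7 above 0), and the 13 without had one of -0.17 (2 above 0). A match is not a binding site, and no match says only that these letters are not in the window.

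The control libraries differed from each other in these genes. For the 16 glycolytic enzymes the median log2 ratio of shControl replicate 1 over replicate 2 (on CPM + 0.5) was 0.31, with replicate 1 higher in 13, while in the knockdown it was 0.02, with replicate 1 higher in 10. Over all tested genes the ratio was 0.01 in both groups. The median log2 CPM of the 34 genes was 3.76 and 3.50 in shControl and 3.69 and 3.82 in the knockdown, so the groups overlapped. Without shControl replicate 2, 3 genes passed (Tpi1, Eno2 and Ddit4, all lower); without shControl replicate 1, 0 did, and the fold changes of Gpi1, Aldoa, Ldha, Ldhb, Pgam1, Eno1, Bnip3l and Pfkfb4 turned positive and that of Pfkfb3 negative.

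**Figure D5:**
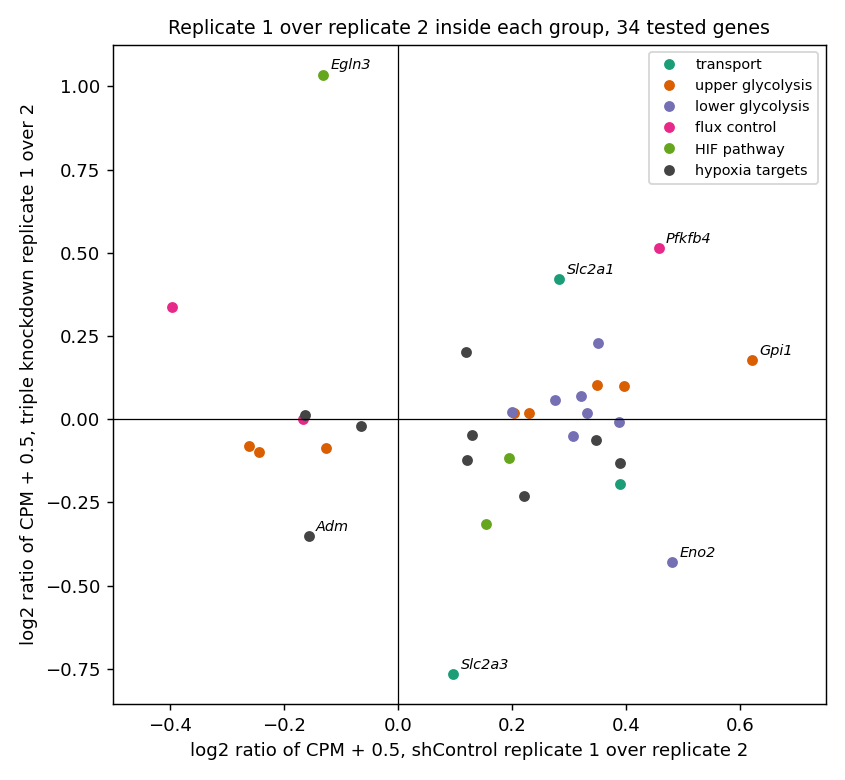
Log2 ratio of replicate 1 over replicate 2 (on CPM + 0.5) in shControl on the horizontal axis and in the triple knockdown on the vertical axis, with 1 point for each of the 34 tested genes, coloured by role. Most points lie right of 0, with 25 of 34 higher in shControl replicate 1, and are spread about 0 vertically, where 16 of 34 are higher in knockdown replicate 1.

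Other genes of the same pathways gave 1 call. Of 99 further genes, 81 were tested, 1 rose and 0 fell, and their log2 fold changes had a median of -0.04. Among all 14050 tested genes 192 (1.37%) passed in either direction, so 1 call among 81 genes is near the background. Igfbp3, a secreted binder of insulin-like growth factors that hypoxia is known to induce, measured 14.6 and 11.8 CPM in shControl and 20.82 and 19.7 CPM in the knockdown, and rose (log2 fold change 0.61 ± 0.17 SE, adjusted p = 0.042). The call was kept in 10 of 15 alternative analyses and lost when libraries were scaled by total count alone, with DESeq2, without shControl replicate 2 and without either knockdown library. Among other glycolysis genes (17 of 27 tested, 0 passed, median -0.17), the smallest p were those of the brain aldolase Aldoc (log2 fold change -0.46 ± 0.13 SE, adjusted p = 0.058), the insulin-regulated glucose transporter Slc2a4 (-2.13, from 0.928 and 0.900 CPM to 0.266 and 0.130 CPM) and Pfkfb2 (-0.50, adjusted p = 0.40). Aldoc measured 105 and 91.5 CPM in shControl and 71.4 and 71.3 CPM in the knockdown, and passed without shControl replicate 2 (adjusted p = 0.00401).

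Of genes that decide the fate of pyruvate, 12 of 13 were tested and 0 passed; the log2 fold changes of Dld, Dlat and Pdha1, parts of the pyruvate dehydrogenase complex, were 0.33, -0.38 and 0.24. Of the pentose phosphate genes 7 of 8 were tested and 0 passed, with Taldo1 at -0.39, Rpe at 0.37 and Rpia at 0.27. Of the oxygen-sensing machinery 10 of 11 were tested and 0 passed, with Egln2 at -0.36, Hif3a at -0.84 and Arnt2 at -0.28, and Epas1, the alternative alpha subunit, was too low to be tested (0.3001 to 0.532 CPM). Of 40 further hypoxia-responsive genes 35 were tested, with Igfbp3 the single call.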

How the data were processed

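RNA sequencing libraries, 2 for each group, were prepared with the NEBNext Ultra II RNA kit (100 ng input), per the labels' protocols. The authors deposited estimated counts per gene, not normalized, made with Salmon on the mouse builds GRCm38 and mm10 per the submitters' processing notes; the sources used here do not give its version, the annotation or the strandedness. Between 23.1% and 25.1% of the deposited values per library were not whole, and all were rounded. Of 34866 identifiers, 34652 matched GENCODE M21 (GRCm38), which gave symbols, positions, exon lengths and shared 31-mers.

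Testing used edgeR 4.0.16 under R 4.3.3 (TMM factors, filterByExpr with a minimum count of 10, robust quasi-likelihood F test, two-sided), with Benjamini-Hochberg adjustment over all 14050 tested genes and a threshold of 0.05. An SE is that of a log2 fold change, and intervals are 95%. The scripts were tested on simulated counts, in which 100 genes were changed 2-fold and 100 genes 1.5-fold. At the same threshold 95% of the 2-fold and 51% of the 1.5-fold changes were recovered, and 11.0% of the calls were false. Genes of low level were not among those changed. Counts were drawn for each gene on its own, so a shift shared by many genes, like that between the control libraries, was not simulated. The recovered shares may therefore not hold for this set. The share of false calls was above the level the threshold is set for, so calls near it are uncertain. Exact permutation of 2 libraries against 2 gives at best p = 0.33, so it was not used. Alternatives were other scalings, filters, tools (DESeq2 1.42.0, limma-voom in limma 3.58.1), treatment of shared sequence, a replicate block and leaving out each library.

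The genes and lists were chosen with earlier results of these data known. Values in every library are given for the 8 genes with the smallest p, the 6 with the highest level per length, and those with groups apart and a log2 fold change of at least 0.3 in size; some others were added after their values were seen. Of other pathway lists, genes past the threshold or the 3 with the smallest p were named, and of marker lists the 2 with the highest CPM. Intervals cover the spread between libraries as fitted.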

Additional observations from a re-analysis of the deposited data

How the results depend on the processing

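Of 508 values of the 34 genes under the alternatives, 505 kept their side of the threshold; the exceptions were Tpi1, Eno2 and Ddit4 without shControl replicate 2. The number of these genes past the threshold was 0 higher in every alternative and, leaving out single libraries, 0 to 3 lower. Over all tested genes, leaving out single libraries gave 27 to 280 genes higher and 17 to 334 lower, the most without shControl replicate 2; where 1 library was left in a group it was assumed to vary like the other group's. DESeq2 gave 23 higher and 32 lower over all genes, and scaling by library size alone 28 lower; the cause was not tested. Of the other pathway genes, the 1 gene higher became 0 with library-size scaling and with DESeq2, and 0 to 3 leaving out single libraries, with 0 to 3 lower. The median log2 fold change of the set ranged from -0.19 to -0.03, and was -0.06 with library-size scaling, where that of all genes was 0.07.

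The replicate numbers are not said to mark a shared culture, and the deviations of same-numbered libraries correlated at -0.032 across 14050 genes. With the replicate number as a block, 75 genes were higher and 97 lower, 0 of the set passed in either direction, and its median was -0.13.

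With the longest coding transcript as the length, shares over all libraries moved from 12.2% to 19.0% for Slc2a3, from 46.6% to 32.5% for Hk2, from 32.2% to 38.3% for Pfkl, from 60.8% to 46.9% for Pfkm, from 6.94% to 14.9% for Pfkp, from 14.8% to 9.97% for Eno2 and from 59.9% to 49.6% for Ldhb, as the alternative divides by other lengths. With 2 libraries in a group, 4 of the 34 genes had 95% intervals that reach beyond 2-fold.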
